A study of Mus musculus with 12 samples.

Results

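The comparison described here sets the testis of 129/Sv mouse embryos at E17.5, counted in days of embryonic life, against the same organ of the same strain at E13.5. It rests on 4 of the 12 Affymetrix mouse genome arrays of the study, 2 at E17.5 and 2 at E13.5, chosen by the strain and stage in their titles, and on all 45037 probe sets that are not array controls. The other 8 arrays hold 129/Sv embryos at E15.5 and the strain 129.MOLF-Chr 19, called M19, at all 3 stages. In M19, a chromosome substitution strain, chromosome 19 comes from MOLF mice and the rest of the genome from 129. Samples of both stages came from untreated male embryos and are labelled both as testis and as male genital ridges, with 129/Sv as the background strain. Tissue from 40 pairs of testes made 1 pool, which served 2 arrays. The 2 arrays of a stage may therefore share a pool, and the p-values may measure technical spread only. The E15.5 arrays of 129 stood apart in markers of other tissue. Their mean over 12 skin genes was 10.4 and 10.4, and over 15 skeletal muscle genes 8.84 and 8.87. They enter the estimate of the spread. They also enter the means over all 12 arrays that choose the probe set of a gene and set the brightness cutoff for named genes. The differences as deposited do not use them.

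Between these stages the fetal mouse testis passes from newly formed cords to a steroid-producing organ. Its germ cells, still dividing and expressing pluripotency genes when cords form, stop cycling as prospermatogonia, switch that programme off and turn on the genes that silence transposons and lay down new DNA methylation. Sertoli cells surround the germ cells in the cords, peritubular myoid cells wrap the cords, and fetal Leydig cells between the cords convert cholesterol into androgens. The mesonephros, an embryonic kidney that gives rise to the ducts, lies against the early gonad.

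Values are the deposited signal of each probe set on an array, taken as log2 from their range, since the base of the log is not given in the sources used here. On that reading a difference of 1 is a 2-fold change. No read depth exists for arrays, and their number limits the precision. Where a gene had several probe sets, the one with the highest mean signal stood for it, which left 18032 genes. Differences are E17.5 minus E13.5 with the standard error (SE) of a limma fit over all 12 arrays, and a gene counts as called where the p-value, adjusted over all 45037 probe sets by the method of Benjamini and Hochberg, lay under 0.05. The 2 E13.5 arrays resembled each other less than the 2 E17.5 arrays: the SD of the difference between replicates was 0.229 at E17.5, against 0.38 at E13.5. The first E13.5 array also stood apart in its controls, in which the 18S signal was 7.57 and 7.45 on the E17.5 arrays, against 9.69 on the first and 7.27 on the second E13.5 array. Its part in the results was not tested beyond leaving it out. Without it, 2072 genes were called in place of 1975. Where leaving out an array of either stage moves the count of a list by over 1.5 times, the count without it stands beside the list.

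Of the 45037 probe sets, 3721 were called (8.26%). Of the 18032 genes, 1975 were called between E17.5 and E13.5, which is 11.0% of those tested. In all, 1251 genes were higher at E17.5 (6.94% of those tested) and 724 were lower (4.02%). These shares are the background for the counts in every list below. The median difference over all genes was 0.00743, and the smallest difference called was 0.378 in size. A difference of at least 1 was called in 538 genes (2.98%), 380 of them higher (2.11%) and 158 lower (0.876%). At a size of at least 3, 12 genes were higher and 13 were lower. The 2 arrays of one stage lay wholly above the 2 of the other in all 1975 called genes, and in 45.9% of all genes. Leaving out the first or the second E17.5 array lowered the count of called genes to 1021 and 1016, and the fit on the 4 arrays of this comparison alone called 716. In bulk tissue, fewer cells of a type and less RNA per cell cannot be told apart, and this holds for every result below.

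**Figure D1:**
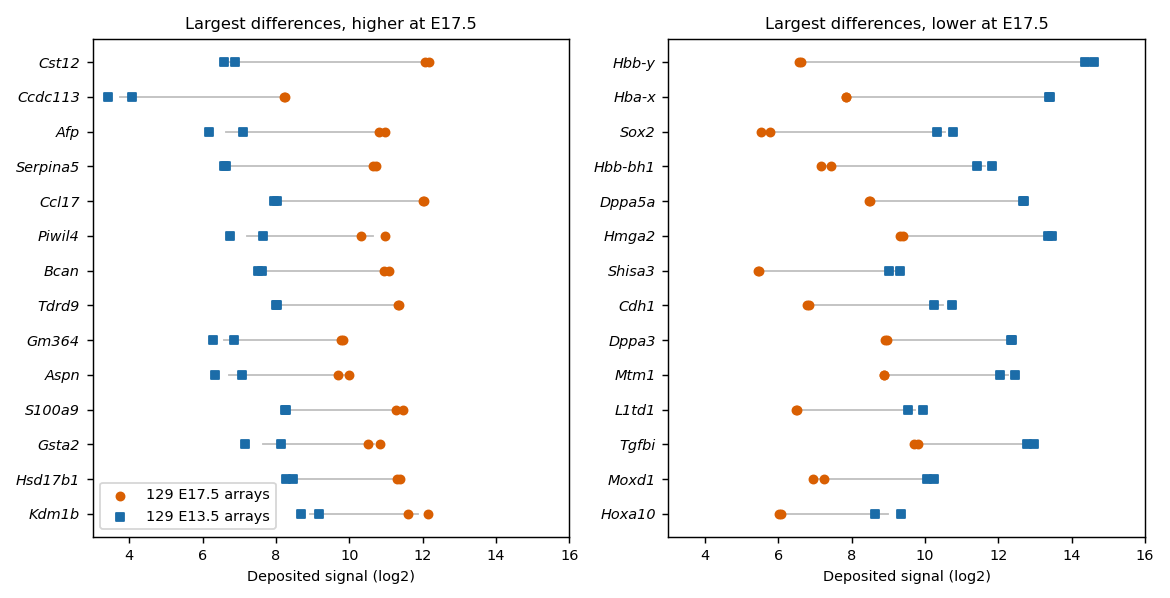
Deposited log2 signal (horizontal axis) on each array for the 14 genes with the largest called differences in each direction, with E17.5 arrays as orange circles and E13.5 arrays as blue squares. Grey lines join the stage means. The genes were chosen so that no E17.5 point overlaps an E13.5 point. The gap is widest for Hbb-y, at -7.89.

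The germ cells' pluripotency programme was lower at E17.5. Of 22 pluripotency genes measured, 12 fell and 1 rose, and the median difference was -0.803, against 0.00743 over all genes. Sox2, a core pluripotency transcription factor, had 5.78 and 5.53 on the E17.5 arrays, against 10.31 and 10.76 on the E13.5 arrays. Its difference of -4.88 ± 0.22, adjusted p = 3.5e-07, was the third largest fall of all genes named by size. Nanog, another factor of the same core, had 6.43 and 6.42 at E17.5, against 8.80 and 9.22 at E13.5, and fell by 2.58 on the log2 scale (SE 0.23, adjusted p = 4.2e-05). Pou5f1, which encodes OCT4, moved less. It had 9.07 and 9.34 at E17.5, against 10.48 and 10.96 at E13.5, a difference of -1.52 ± 0.16, adjusted p = 0.00014.

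Among genes named for developmental pluripotency, Dppa5a and Dppa3 fell further than Pou5f1 on this scale. Dppa5a, an RNA-binding protein of pluripotent and germ cells, had 8.46 and 8.49 at E17.5, against 12.67 and 12.70 at E13.5 (-4.22 ± 0.11, adjusted p = 7.7e-09). Dppa3, also called Stella, protects methylated DNA in the early embryo and had 8.95 and 8.91 at E17.5, against 12.37 and 12.35 at E13.5 (-3.43 ± 0.12, adjusted p = 6e-08). Both genes had replicate arrays within 0.05 of each other. L1td1, an RNA-binding protein of pluripotent cells, had 6.47 and 6.51 at E17.5, against 9.52 and 9.94 at E13.5 (-3.24 ± 0.14, adjusted p = 2.6e-07). Zfp42, the marker Rex1, differed by -2.05 ± 0.18, Tcl1 by -1.47 ± 0.14 and Tfcp2l1 by -1.17 ± 0.17. The dimmer probe sets of Tfcp2l1 were not called (-0.07 and -0.29). Of the 12 genes that fell, 10 kept the call in each of the 12 fits that left out 1 array. Both exceptions were small: Sall4 differed by -0.59 and lost the call without the first E17.5 array (adjusted p = 0.10), and Utf1 differed by -0.51 and missed the threshold in 11 of the 12 fits, at most at adjusted p = 0.23. The 1 riser was Klf4, with 10.04 and 10.15 at E17.5, against 8.50 and 9.27 at E13.5 (1.21 ± 0.23, adjusted p = 0.0075), and it missed the threshold without the second E17.5 array (adjusted p = 0.067). Lin28a had a difference of -1.02 that was not called (adjusted p = 0.096). The second brightest probe set of Utf1 was called lower (-0.98, adjusted p = 0.0073). Its dimmest (-0.03) and the dimmer probe set of Sall4 (-0.53) were not called.

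Nodal signalling is active in the germ cells of the early testis cords and uses Cripto as co-receptor. Of 12 genes of the pathway measured, 4 fell and none rose in the limma fit, and at an unadjusted p under 0.05 the counts were 7 and 0. Without the first E13.5 array 6 were lower and 1 was higher. Tdgf1, which encodes Cripto, had 5.17 and 4.72 at E17.5, against 7.19 and 8.12 at E13.5 (-2.71 ± 0.33, adjusted p = 0.00042). Its E13.5 arrays lay apart from each other, and both lay above both E17.5 arrays. Nodal, the ligand, had 6.88 and 6.86 at E17.5, against 8.05 and 8.24 at E13.5 (-1.28 ± 0.13, adjusted p = 0.00013), and the antagonist Lefty1 had 9.48 and 9.41 at E17.5, against 10.38 and 10.16 at E13.5 (-0.83 ± 0.12, adjusted p = 0.0015). Smad3, a transducer of the signal, differed by -0.73 ± 0.12 and missed the threshold in the fit on the 4 arrays alone (adjusted p = 0.075), and its other 2 probe sets were not called (-0.14 and -0.33). Cer1, a secreted Nodal antagonist, had a difference of 0.30 in its brighter probe set (adjusted p = 0.34), while its dimmer probe set was called higher (0.87, adjusted p = 0.0047).

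Genes of the male germline piRNA pathway, which makes small RNAs that guide the silencing of transposons, were higher at E17.5. Of 18 measured, 13 rose and none fell, with a median difference of 0.816. The list also holds Morc1, a repressor of transposons, and Dnmt3l, a cofactor of DNA methyltransferases. Array by array, the mean over the 18 genes was 10.0 and 9.96 at E17.5, against 8.71 and 8.77 at E13.5. Piwil4, the PIWI protein MIWI2 that acts in the nucleus of prospermatogonia, had 10.96 and 10.32 at E17.5, against 6.75 and 7.65 at E13.5. Its difference of 3.44 ± 0.28, adjusted p = 2.3e-05, was the largest of the list. Piwil2, or MILI, the cytoplasmic partner that starts the pathway, had 11.62 and 11.44 at E17.5, against 9.03 and 9.34 at E13.5 (2.34 ± 0.15, adjusted p = 4.1e-06). Piwil1, or MIWI, the PIWI protein of later male germ cells, had 8.10 and 7.88 at E17.5, against 7.17 and 7.02 at E13.5 and differed by 0.89 ± 0.13.

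The Tudor domain proteins and other partners of the PIWI proteins did not move alike. Tdrd9, a helicase that works with MIWI2, had 11.32 and 11.35 at E17.5, against 8.01 and 8.04 at E13.5 (3.31 ± 0.12, adjusted p = 6.2e-08), with replicates within 0.05 at both stages. Tdrd7 differed by 1.44 ± 0.13, while Tdrd5 (-0.14, adjusted p = 0.64) and Tdrkh (-0.31, adjusted p = 0.18) were not called. The dimmer probe set of Tdrd7 was not called either (0.05, adjusted p = 0.87). Morc1, a repressor of transposons in male germ cells, had 10.14 and 10.17 at E17.5, against 7.98 and 8.47 at E13.5 (1.93 ± 0.16, adjusted p = 2.5e-05). Mael, which joins piRNA production to transposon silencing, had 12.81 and 12.82 at E17.5, against 10.14 and 10.65 at E13.5 (2.42 ± 0.15, adjusted p = 3.6e-06). In all, 8 of the 13 risers, Piwil4, Tdrd9, Dnmt3l, Mael, Piwil2, Morc1, Tdrd7 and Piwil1, kept the call in each fit that left out 1 array, with array weights and on the 4 arrays alone. The other 5 lost it in at least 1 of those fits. One of them is Ddx4, the helicase MVH of all germ cells, at 0.87 ± 0.20. Without the first E17.5 array Ddx4 had an adjusted p of 0.18, and without the first E13.5 array 0.099.

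DNA methylation acts at CpG, so the 250 bases before the start of Mael are shown beside those of Cst12, the gene with the largest rise, as windows rich and poor in CpG. Both are written 5′ to 3′ on the gene's strand from RefSeq (build GRCm38.p6), with each CpG in capitals. The Mael window lies at chr1:166238745-166238994 on the minus strand and the Cst12 window at chr2:148789115-148789364 on the plus strand.
Mael: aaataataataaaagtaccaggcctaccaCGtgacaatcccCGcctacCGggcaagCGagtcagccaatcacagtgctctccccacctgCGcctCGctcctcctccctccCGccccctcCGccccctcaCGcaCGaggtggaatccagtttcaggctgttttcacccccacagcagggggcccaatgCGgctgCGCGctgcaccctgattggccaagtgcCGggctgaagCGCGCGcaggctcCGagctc
Cst12: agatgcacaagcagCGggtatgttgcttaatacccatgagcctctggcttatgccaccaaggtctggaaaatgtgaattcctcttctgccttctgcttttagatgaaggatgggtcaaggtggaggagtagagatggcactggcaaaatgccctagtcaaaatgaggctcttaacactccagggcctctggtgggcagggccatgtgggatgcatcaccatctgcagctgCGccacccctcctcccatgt
The Mael window holds 18 CpG and the Cst12 window 2, beside a median of 13 over the 14368 genes with a window. No methylation was measured here.

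Dnmt3l, the cofactor of the de novo DNA methyltransferases that is required for methylation in prospermatogonia, had 10.55 and 10.72 at E17.5, against 8.15 and 7.97 at E13.5 (2.57 ± 0.12, adjusted p = 3.6e-07). It was 1 of 2 risers among the 12 measured writers and erasers of DNA methylation, and is counted in the piRNA list as well. The other was Kdm1b, a histone H3 lysine 4 demethylase needed for methylation of imprinted genes in oocytes, with 12.14 and 11.61 at E17.5, against 8.67 and 9.17 at E13.5 (2.95 ± 0.22, adjusted p = 1.2e-05). The catalytic partners were not called: Dnmt3a differed by 0.18 (adjusted p = 0.6) and Dnmt3b by -0.19 (adjusted p = 0.6). Tet1, an eraser, differed by -1.17 ± 0.27, and its call was lost without the second E13.5 array (adjusted p = 0.093), and without either E17.5 array (0.12 each). Of the other 3 probe sets of Tet1, 1 was called lower (-1.18) and 2 gave -0.03 with no call.

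**Figure D2:**
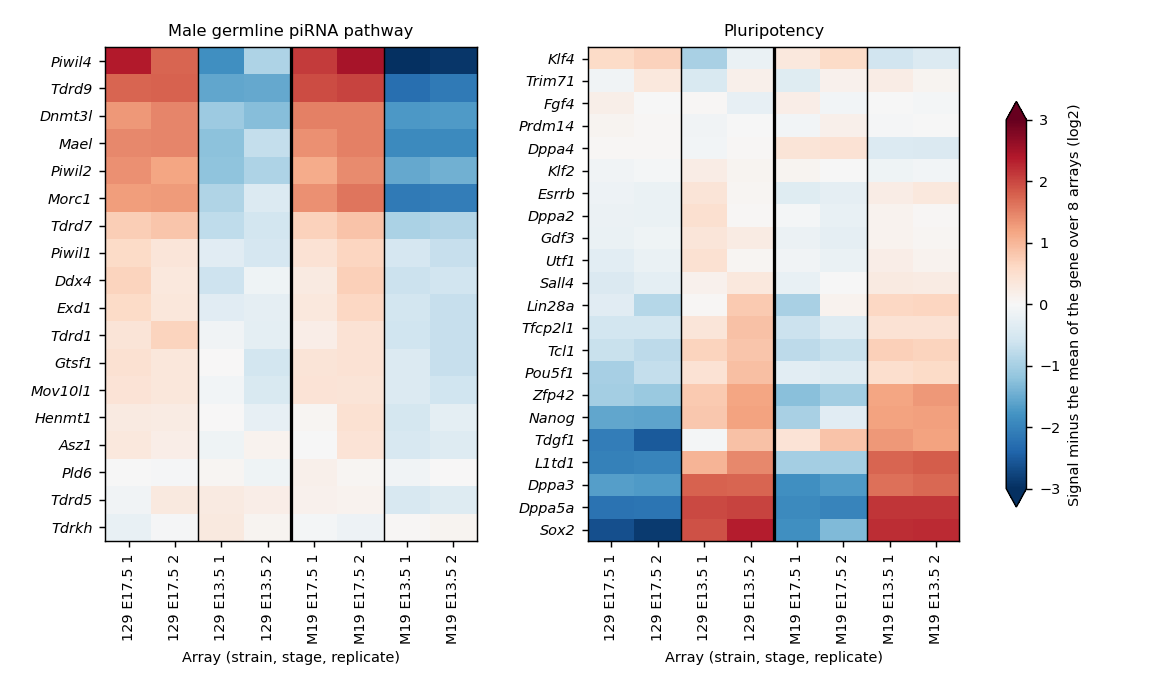
Signal of each gene minus its mean over the 8 arrays shown (log2, colour), for the 18 piRNA pathway genes (left panel) and 22 pluripotency genes (right panel), by array, with E17.5 left of E13.5 and 129 left of M19. Red is above and blue below the mean of the gene. In 129 most piRNA genes are red at E17.5 and blue at E13.5, with Piwil4 at the top (difference 3.44), and most pluripotency genes are the reverse, with Sox2 at the bottom (-4.88).

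General germ cell markers were split. Of 19 measured, 7 rose and 4 fell, and the median difference was 0.0854. Without the first E17.5 array 4 were called higher. Besides Mael, the risers with the largest differences were Nxf2, an RNA export factor gene of the X chromosome expressed in germ cells, with 10.66 and 10.67 at E17.5, against 8.02 and 8.26 at E13.5 (2.53 ± 0.12, adjusted p = 6.3e-07), and Tex101, a germ cell surface protein, with 9.64 and 9.76 at E17.5, against 8.50 and 8.16 at E13.5 (1.37 ± 0.13, adjusted p = 9e-05). Besides Dppa3 and Pou5f1, the fallers included Prdm1, the transcription factor that specifies germ cells (-0.93 ± 0.16, adjusted p = 0.0036). Dazl, an RNA-binding protein of all germ cells at this age, had 12.07 and 11.97 at E17.5, against 12.47 and 12.31 at E13.5, and its difference of -0.37 was not called (adjusted p = 0.14). Dnd1, an RNA-binding protein needed for germ cell survival, was at 9.75 and 9.78 at E17.5, against 9.90 and 9.69 at E13.5 (adjusted p = 0.92).

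Among 22 meiosis genes, 8 rose and 2 fell. The counts were 4 and 1 without the first E17.5 array, 5 and 1 without the second, and 7 and 1 without the first E13.5 array. Tex15, a germ cell protein linked to both recombination and piRNA-guided silencing, had 11.96 and 11.80 at E17.5, against 9.30 and 9.74 at E13.5 and the largest rise (2.36 ± 0.15, adjusted p = 3.9e-06). Spo11, which makes the breaks that start recombination, had 7.93 and 8.07 at E17.5, against 7.14 and 7.10 at E13.5 (0.88 ± 0.11, adjusted p = 0.00064). Tex11 fell, with 6.90 and 6.79 at E17.5, against 7.76 and 7.99 at E13.5 (-1.04 ± 0.14, adjusted p = 0.001). Stra8, the switch into meiosis that fetal testes keep off, was not called (-0.10, adjusted p = 0.82), nor was Sycp1 (0.16, adjusted p = 0.49) or Dmc1 (0.03, adjusted p = 0.96).

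The helix-loop-helix pair Sohlh1 and Sohlh2, both regulators of spermatogonia, moved in opposite directions. Sohlh1 had 9.54 and 9.56 at E17.5, against 7.12 and 7.23 at E13.5 (2.37 ± 0.11, adjusted p = 4.1e-07). Sohlh2 had 7.93 and 7.72 at E17.5, against 9.73 and 9.83 at E13.5 (-1.95 ± 0.13, adjusted p = 7e-06). In the list of 17 measured spermatogonial genes to which they belong, 5 rose and 3 fell. Egr2, an early growth response factor, differed by 1.42 ± 0.22, Uchl1, a ubiquitin hydrolase of spermatogonia, by 1.00 ± 0.17, and Etv5, a transcription factor downstream of GDNF, by -1.10 ± 0.15. Of genes that mark spermatogonial stem cells after birth, Zbtb16 (-0.16, adjusted p = 0.7) and Gfra1 (-0.31, adjusted p = 0.18) were not called. Id4, another such marker, was called lower (-0.91 ± 0.24, adjusted p = 0.038), as were its dimmer probe sets (-0.61 and -1.18). Id4 was not called with array weights (adjusted p = 0.11) or on the 4 arrays alone (0.10).

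Sertoli cell genes were mostly higher at E17.5. Of 31 measured, 18 rose and 4 fell, with a median difference of 0.645. Serpina5, the protein C inhibitor, had 10.73 and 10.65 at E17.5, against 6.60 and 6.64 at E13.5 and the largest rise of the list (4.07 ± 0.12, adjusted p = 1.2e-08). Hsd17b1, which reduces estrone and related steroids, had 11.31 and 11.37 at E17.5, against 8.48 and 8.28 at E13.5 (2.96 ± 0.11, adjusted p = 6.1e-08). Inha, the inhibin alpha subunit, had 12.91 and 13.16 at E17.5, against 10.59 and 10.74 at E13.5 (2.37 ± 0.12, adjusted p = 6.7e-07), and Inhbb, the beta B subunit that completes inhibin B, had 11.81 and 11.94 at E17.5, against 10.43 and 10.89 at E13.5 (1.21 ± 0.16, adjusted p = 0.00067). The dimmer probe set of Inhbb was not called (0.47, adjusted p = 0.13). Serpina5, Hsd17b1 and Inha were separated by far more than the spread between their replicates. In the brighter probe set of Inhbb the E13.5 replicates lay further apart (10.43 and 10.89), both under the E17.5 arrays.

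Other Sertoli cell genes rose less. Clu, clusterin, differed by 1.21 ± 0.11, Defb19, a beta defensin, by 1.33 ± 0.11, Ptgds, prostaglandin D2 synthase, by 1.24 ± 0.12, and Tesc, the calcium-binding protein tescalcin, by 1.40 ± 0.12. Hsd17b3, the enzyme that turns androstenedione into testosterone and that fetal Sertoli cells express, had 11.02 and 10.98 at E17.5, against 9.96 and 9.69 at E13.5 (1.18 ± 0.14, adjusted p = 0.00037). Amh, anti-Müllerian hormone, had 11.52 and 12.21 at E17.5, against 10.16 and 11.46 at E13.5, and its difference of 1.05 was not called (adjusted p = 0.14). For Amh the lower E17.5 array lay close to the higher E13.5 array, and the replicates of each stage lay apart. Sox9, the factor that sets Sertoli cell fate, differed by -0.29 (adjusted p = 0.52) and Dmrt1, which maintains it, by 0.19 (adjusted p = 0.56), and neither was called. Those that fell were Fgf9, the growth factor that stabilises male fate, with 7.55 and 7.53 at E17.5, against 8.99 and 9.37 at E13.5 (-1.65 ± 0.15, adjusted p = 6.6e-05), Col9a3, a collagen IX chain (-1.45 ± 0.12), Cldn11, a tight junction claudin (-1.44 ± 0.14), and Wt1 (-0.54 ± 0.11), whose call was lost without either E17.5 array (adjusted p = 0.053 and 0.10). The second probe set of Fgf9, nearly as bright, gave -0.39 and was not called (adjusted p = 0.15). Of the 18 risers, 11 kept the call in each fit that left out 1 array, and without the second E17.5 array 11 Sertoli genes were called higher.

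Fetal Leydig cell genes were higher at E17.5. Of 11 measured, 7 were called, all higher, and all 7 kept the call in each fit that left out 1 array, with array weights and on the 4 arrays alone. The median difference of the list was 1.52. Star, which carries cholesterol into mitochondria, had 12.40 and 12.42 at E17.5, against 9.97 and 10.24 at E13.5 (2.31 ± 0.15, adjusted p = 4e-06). Cyp11a1, the side-chain cleavage enzyme that makes pregnenolone, had 12.90 and 13.22 at E17.5, against 11.03 and 11.27 at E13.5 (1.91 ± 0.14, adjusted p = 1.1e-05). Cyp17a1, which carries the path on to androgens, had 13.58 and 13.70 at E17.5, against 12.01 and 11.87 at E13.5 (1.70 ± 0.11, adjusted p = 4.2e-06). Hsd3b1, the dehydrogenase that turns pregnenolone into progesterone, had 13.23 and 13.11 at E17.5, against 11.64 and 11.49 at E13.5 (1.61 ± 0.11, adjusted p = 5.8e-06). All 4 genes were higher on both E17.5 arrays than on either E13.5 array. Scarb1, a receptor for lipoprotein cholesterol, differed by 1.52 ± 0.11, Fdx1, the electron donor of mitochondrial P450 enzymes, by 1.00 ± 0.11, and Inhba, the activin beta A subunit of fetal Leydig cells, by 1.68 ± 0.12. The dimmer probe set of Inhba (0.20, adjusted p = 0.64) and the dimmest of Cyp11a1 (0.34, adjusted p = 0.11) were not called. Cyb5a, cytochrome b5, which aids the lyase step of CYP17A1, was not called (0.24, adjusted p = 0.3), nor were Cyp11b1, Mc2r and Vsnl1.

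Cholesterol synthesis, the supply line of steroid production, was higher as well. Of 19 genes measured, 12 rose and none fell, all 19 differences were above 0, and the median difference was 0.609. Tm7sf2, a sterol reductase, had 9.74 and 9.83 at E17.5, against 8.50 and 8.73 at E13.5 (1.17 ± 0.15, adjusted p = 0.00075). Dhcr7, the last enzyme of the path, had 11.67 and 11.53 at E17.5, against 10.57 and 10.67 at E13.5 (0.97 ± 0.11, adjusted p = 0.00034). Cyp51, the lanosterol demethylase, had 10.80 and 10.71 at E17.5, against 9.69 and 9.94 at E13.5 (0.94 ± 0.14, adjusted p = 0.0016), and Msmo1, which removes methyl groups from later sterols, had 11.55 and 11.64 at E17.5, against 10.79 and 10.77 at E13.5 (0.82 ± 0.12, adjusted p = 0.0017). These shifts are smaller than those of the Leydig enzymes and depend more on the spread assumed: 5 of the 12 risers kept the call in each fit that left out 1 array, 7 were called without the second E17.5 array, and the fits with array weights and on the 4 arrays called 5 and 4. The dimmer probe sets of Cyp51 (0.46 and 0.17) and Msmo1 (0.13) were not called. Sqle, squalene epoxidase, had a difference of 0.42 that was not called (adjusted p = 0.05). Srebf2, the transcription factor that controls the path, had 11.01 and 11.35 at E17.5, against 10.15 and 10.79 at E13.5 and was not called (adjusted p = 0.077).

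As members of one path that were called in the same direction, Cyp51 and Msmo1 are shown by their promoters, the 250 bases before each start, from RefSeq (build GRCm38.p6), 5′ to 3′ on the gene's strand. Capitals mark the motif CCAAT, a sequence bound by the factor NF-Y, searched on both strands. The windows are chr5:4104698-4104947 and chr8:64733579-64733828, both on the minus strand.
Cyp51: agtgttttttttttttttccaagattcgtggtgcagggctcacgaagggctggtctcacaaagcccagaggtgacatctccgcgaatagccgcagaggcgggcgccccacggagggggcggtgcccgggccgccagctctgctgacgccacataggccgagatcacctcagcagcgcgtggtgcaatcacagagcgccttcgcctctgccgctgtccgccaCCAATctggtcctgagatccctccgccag
Msmo1: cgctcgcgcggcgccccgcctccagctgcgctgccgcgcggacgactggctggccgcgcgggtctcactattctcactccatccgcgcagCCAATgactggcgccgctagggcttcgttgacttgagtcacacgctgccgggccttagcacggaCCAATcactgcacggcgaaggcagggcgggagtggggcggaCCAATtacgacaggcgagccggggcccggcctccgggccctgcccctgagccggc
CCAAT lies 29 bases before the start of Cyp51, and 160, 96 and 55 bases before that of Msmo1. It occurs in 93.8% of the 16 cholesterol genes with a window, and in 35.7% of the 14368 windows of all genes. Not every window of the 16 holds it.

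Smooth muscle genes of the peritubular layer rose in 9 of 16 measured and fell in 1. Myh11, smooth muscle myosin, had 10.24 and 10.29 at E17.5, against 7.42 and 7.71 at E13.5 (2.70 ± 0.14, adjusted p = 1.1e-06). Actg2, an actin of visceral smooth muscle, had 8.90 and 9.09 at E17.5, against 6.46 and 6.69 at E13.5 (2.42 ± 0.16, adjusted p = 4.9e-06). Acta2, the smooth muscle actin by which myoid cells are usually recognised, had 13.49 and 13.44 at E17.5, against 12.21 and 12.08 at E13.5 (1.32 ± 0.11, adjusted p = 2.5e-05). Tagln, an actin-binding protein, differed by 1.87 ± 0.11, Myl9, a myosin light chain, by 1.55 ± 0.18, and Mylk, the kinase that activates it, by 1.01 ± 0.10. The dimmer probe set of Myh11 (0.37, adjusted p = 0.35) and the dimmest of 3 for Mylk (0.47, adjusted p = 0.077) were not called. Neither were the dimmer probe sets of Acta2 (0.15 and 0.35). Des and Cnn1, also contractile genes, were not called (0.17 and 0.19). Itga8, an integrin subunit, was the exception and had 8.77 and 8.57 at E17.5, against 11.46 and 11.53 at E13.5 (-2.83 ± 0.17, adjusted p = 2.4e-06).

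Genes of elastic fibres were among the matrix genes with the largest rises. Of 20 genes for fibrillar collagens and their partners, 9 rose and 2 fell, with 1 called lower without either E17.5 array or the second E13.5 array. Eln, elastin, had 11.94 and 12.11 at E17.5, against 9.59 and 9.62 at E13.5 (2.42 ± 0.12, adjusted p = 5.9e-07). Lox, which cross-links elastin and collagen, had 11.53 and 11.54 at E17.5, against 9.90 and 10.11 at E13.5 (1.53 ± 0.13, adjusted p = 2.5e-05). Fbln5, which guides elastin assembly, differed by 1.37 ± 0.17, and Mfap4, a microfibril-associated protein, by 1.22 ± 0.11. The dimmer probe set of Fbln5 (0.17, adjusted p = 0.51) and the dimmest of Lox (0.38, adjusted p = 0.14) were not called. Of the main fibrillar collagen chains, Col1a1 rose (0.53 ± 0.12, adjusted p = 0.018), a call lost without the second E17.5 array (adjusted p = 0.15) and without the second E13.5 array (0.053), and its dimmer probe set was not called (-0.31, adjusted p = 0.69). Col1a2 (0.29, adjusted p = 0.13) and Col3a1 (0.19, adjusted p = 0.36) were not called. Postn, periostin, fell (-1.16 ± 0.14, adjusted p = 0.00038).

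In the 12 small leucine-rich proteoglycans, which bind collagen and growth factors, 4 rose and 2 fell. The 2 calls lower became 0 without the first E17.5 array, and 1 without the second or without the first E13.5 array. Aspn, asporin, had 10.01 and 9.70 at E17.5, against 6.35 and 7.09 at E13.5 (3.13 ± 0.25, adjusted p = 2.4e-05), and Ogn, osteoglycin, had 11.81 and 11.49 at E17.5, against 9.18 and 9.40 at E13.5 (2.36 ± 0.16, adjusted p = 8.4e-06). Their relatives Omd and Ecm2 were not called: Omd differed by 0.01 (adjusted p = 0.97) and Ecm2 by -0.13 (adjusted p = 0.8). Of 17 basement membrane genes, 5 rose and 1 fell, led by Lama2, the laminin chain of muscle basement membranes, with 10.57 and 10.76 at E17.5, against 8.67 and 8.55 at E13.5 (2.05 ± 0.12, adjusted p = 2.1e-06). The remaining 4 risers of that list were called at differences between 0.44 and 0.71. In that list 2 genes were called higher without either E17.5 array and 3 without the first E13.5 array, and the 1 call lower was lost without either E17.5 array and without the second E13.5 array. Array weights left 2 called higher and the 4 arrays alone 1.

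The largest fall in the whole comparison belonged to embryonic globins of the yolk sac, which primitive red cells carry and which fetal liver red cells no longer make. Hbb-y, an embryonic beta-type globin gene at chr7:103851754-103853207, had 6.62 and 6.56 on the E17.5 arrays, against 14.61 and 14.36 on the E13.5 arrays (-7.89 ± 0.13, adjusted p = 1.5e-10). Hba-x, the embryonic alpha-type globin gene at chr11:32276600-32278116, had 7.84 and 7.85 on the E17.5 arrays, against 13.38 and 13.40 on the E13.5 arrays (-5.54 ± 0.12, adjusted p = 1.1e-09). Hbb-bh1, another embryonic beta-type gene, had 7.43 and 7.16 at E17.5, against 11.83 and 11.42 at E13.5 (-4.32 ± 0.17, adjusted p = 1.3e-07). In all 3 the replicates of a stage lay within 0.5 of each other, far less than the gap between stages. Alas2, the first enzyme of heme synthesis in red cells, rose instead, with 10.90 and 11.08 at E17.5, against 9.54 and 9.66 at E13.5 (1.39 ± 0.12, adjusted p = 3.6e-05). Of the 14 red cell genes measured, 4 fell and 1 rose. The probe sets for adult globins gave no call: Hbb-b2 had 11.68 and 11.12 at E17.5, against 12.25 and 11.13 at E13.5, with replicates that lay further apart than the stages (adjusted p = 0.85), and Hba-a1 differed by 0.08 (adjusted p = 0.81). Probe sets of these near-identical globin genes may share transcripts.

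The 250 bases before the starts of the embryonic globin genes with the largest falls are shown in the same way (RefSeq, build GRCm38.p6), at chr7:103853208-103853457 on the minus strand and chr11:32276350-32276599 on the plus strand. Capitals mark TATAAA, the letters of the TATA box, then CCAAT, as above, and the letters bound by Krüppel-like factors, CACCC, searched on both strands.
Hbb-y: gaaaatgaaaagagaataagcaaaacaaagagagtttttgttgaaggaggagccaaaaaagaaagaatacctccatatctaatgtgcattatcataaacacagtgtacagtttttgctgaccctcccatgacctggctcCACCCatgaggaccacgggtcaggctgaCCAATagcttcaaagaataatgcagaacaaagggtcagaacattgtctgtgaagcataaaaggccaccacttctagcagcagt
Hba-x: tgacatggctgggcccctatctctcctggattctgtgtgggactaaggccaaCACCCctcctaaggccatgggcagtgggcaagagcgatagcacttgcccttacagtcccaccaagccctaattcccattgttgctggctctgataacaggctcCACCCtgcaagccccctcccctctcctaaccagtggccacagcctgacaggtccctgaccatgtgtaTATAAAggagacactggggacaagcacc
Hbb-y holds CACCC at 111 and CCAAT at 83 bases before the start. Hba-x holds CACCC at 198 and 95 and TATAAA at 28 bases before the start. Over the 14368 windows, TATAAA occurs in 9.01%, CCAAT in 35.7% and CACCC in 56.9%.

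White cell genes moved in a narrow group. S100a9 and S100a8, the calprotectin subunits that fill neutrophils, had 11.46 and 11.28 at E17.5, against 8.26 and 8.29 at E13.5 (3.10 ± 0.12, adjusted p = 1.1e-07) and 11.46 and 11.31 at E17.5, against 8.62 and 8.73 at E13.5 (2.71 ± 0.15, adjusted p = 1.7e-06). They were the 2 of 11 measured genes of mast cells and other blood cells that rose. In 12 neutrophil granule genes picked after their values were seen, 7 were higher, S100a8 and S100a9 included. Among them Ngp, neutrophilic granule protein, differed by 1.37 ± 0.12 and Lcn2, lipocalin 2, by 1.56 ± 0.15, while Mpo, myeloperoxidase, was not called (0.00, adjusted p = 0.99). Of 18 macrophage genes, 1 rose, beside 6.94% of all genes. The riser was Lyz2, lysozyme, with 9.67 and 9.79 at E17.5, against 8.45 and 8.39 at E13.5 (1.31 ± 0.11, adjusted p = 3.8e-05). Csf1r, the receptor macrophages depend on, had a difference of -0.32 (adjusted p = 0.49), and Adgre1, a surface marker of macrophages, -0.04 (adjusted p = 0.94). Without the second E13.5 array, 2 macrophage genes were called higher and 1 lower.

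Genes of the mesonephros and its ducts were lower at E17.5. Of 13 measured, 7 fell and none rose, and the mean signal over the list was 8.15 and 8.15 on the E17.5 arrays, against 9.36 and 9.21 on the E13.5 arrays. Cdh16, the kidney cadherin, had 7.77 and 7.54 at E17.5, against 9.96 and 9.88 at E13.5 (-2.26 ± 0.13, adjusted p = 2.5e-06). Emx2, a transcription factor needed for the urogenital system, had 8.68 and 8.46 at E17.5, against 10.59 and 10.60 at E13.5 (-2.02 ± 0.15, adjusted p = 1.1e-05). Gata3, a factor of the nephric duct, was lower on both E17.5 arrays (-1.90 ± 0.17, adjusted p = 4e-05), and Wfdc2, a protein of epididymal and other duct epithelia, had 7.44 and 7.41 at E17.5, against 9.23 and 9.39 at E13.5 (-1.88 ± 0.12, adjusted p = 4e-06). Cdh1, E-cadherin, which both duct epithelium and early germ cells carry, had 6.79 and 6.84 at E17.5, against 10.24 and 10.73 at E13.5 (-3.67 ± 0.21, adjusted p = 1.8e-06). No marker of the list was at 0, and Pax8 (-0.09) and Epcam (0.08) were not called. How much mesonephros was left on the gonads at each stage is not given in the sources used here, and its part in the falls was not tested.

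Genes of the gonad surface fell alongside the mesonephric list. In the coelomic surface list, 5 of 12 measured genes fell and none rose. Cdh1 is among them, and Upk3b, a uroplakin of mesothelium, differed by -0.98 ± 0.12 and Krt7, a keratin of simple epithelia, by -0.91 ± 0.12. Nr2f1, the nuclear receptor COUP-TFI of gonadal mesenchyme, had 8.91 and 8.98 at E17.5, against 10.85 and 11.18 at E13.5 (-2.07 ± 0.14, adjusted p = 5.6e-06), while its relative Nr2f2 was not called (-0.36, adjusted p = 0.2). Of 14 genes that promote the ovary, 4 fell, Nr2f1 again with the largest difference, and Foxl2, the ovarian transcription factor, was not called (-0.11, adjusted p = 0.82). In the ovarian list 2 genes were called lower without either E17.5 array and without the second E13.5 array.

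Retinoic acid, the signal that drives meiosis in the ovary, is made from retinol and reaches the early gonad mainly from the mesonephros. Of 18 genes of its pathway, 7 fell and 1 rose, and 4 were called lower without the second E17.5 array. Aldh1a2, a synthesising dehydrogenase, had 10.88 and 10.90 at E17.5, against 11.71 and 12.03 at E13.5 (-0.98 ± 0.15, adjusted p = 0.0022). Stra6, the retinol uptake receptor, had 8.21 and 8.38 at E17.5, against 9.21 and 9.56 at E13.5 (-1.09 ± 0.13, adjusted p = 0.00048). Rarb, a receptor that is itself a target of the signal, had 7.65 and 7.56 at E17.5, against 8.80 and 9.08 at E13.5 (-1.33 ± 0.15, adjusted p = 0.00027), and Crabp2, a carrier protein, differed by -0.94 ± 0.14. The riser was Aldh1a1, another dehydrogenase, higher on both E17.5 arrays (0.95 ± 0.11, adjusted p = 0.0003). Cyp26b1, the degrading enzyme by which the testis keeps the signal low, was not called (0.09, adjusted p = 0.87).

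Hox genes, which encode position along the body axis, fell in 7 of 28 measured and rose in 1. Without either E13.5 array 9 were called lower. Hoxa10, active in the developing reproductive ducts, had 6.08 and 6.02 at E17.5, against 8.63 and 9.34 at E13.5 (-2.93 ± 0.35, adjusted p = 0.00042), but its dimmer probe set did not follow (0.23, adjusted p = 0.42). Hoxa9 had 7.52 and 7.38 at E17.5, against 10.03 and 10.56 at E13.5 (-2.84 ± 0.21, adjusted p = 1.2e-05). The second probe sets of Hoxa9 (-0.35, adjusted p = 0.25) and Hoxb3 (-0.36, adjusted p = 0.16) were not called either. Hoxc8 differed by -1.55 ± 0.26, Hoxb6 by -1.50 ± 0.18 and Hoxb3 by -1.28 ± 0.13. The riser, Hoxd8, differed by 0.63 ± 0.12. It was not called without the first E17.5 array (adjusted p = 0.061), with array weights or on the 4 arrays alone.

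Several genes of embryonic growth were lower. Hmga2, a chromatin protein of growing embryonic tissue and a target of the let-7 microRNA, had 9.39 and 9.32 at E17.5, against 13.45 and 13.35 at E13.5 (-4.04 ± 0.13, adjusted p = 3e-08), and its other 3 probe sets fell too. Mycn, a growth-promoting transcription factor, had 10.45 and 10.53 at E17.5, against 11.46 and 11.50 at E13.5 (-0.99 ± 0.17, adjusted p = 0.0044), and of its other 2 probe sets 1 was called lower (-0.40) and 1 was not called (-0.01, adjusted p = 0.98). These were 2 of the 3 fallers among 10 oncofetal genes, none of which was called higher. At an unadjusted limma p under 0.05, 5 of the 10 were lower and 1 was higher. The largest upward difference in the list was 1.39 and was not called. Igf2bp3, an RNA-binding protein of the same class, differed by -0.29 and was not called (adjusted p = 0.17). Igf2, the fetal growth factor, had 13.29 and 13.40 at E17.5, against 14.01 and 14.17 at E13.5 (-0.75 ± 0.11, adjusted p = 0.0017). It was not called on the 4 arrays alone (adjusted p = 0.067). Igf1, the growth factor of later life, had 12.30 and 12.31 at E17.5, against 10.27 and 10.55 at E13.5 (1.90 ± 0.15, adjusted p = 1.9e-05). In the list of 14 genes of the Igf axis, 3 rose and 3 fell, with Igfbp2 at -1.10 ± 0.17 and Igfbp7 at 1.16 ± 0.13. The dimmer probe sets of Igfbp7 were not called (0.10 and 0.30).

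Cdkn1c and Igf2 belong to the 22 imprinted genes measured, of which 6 fell and 1 rose. Without either E17.5 array 3 were called lower, and without the first E13.5 array 4 lower and 2 higher. Cdkn1c, the growth-restraining inhibitor p57, had 11.40 and 11.57 at E17.5, against 12.61 and 12.48 at E13.5 (-1.06 ± 0.12, adjusted p = 0.00026), and Nnat, neuronatin, differed by -0.92 ± 0.13. Several of the best known, Dlk1 (0.22), Meg3 (0.06), Grb10 (0.01) and Gnas (0.02), were not called. The other inhibitors of the cell cycle were divided. Cdkn1a, p21, had 8.39 and 8.39 at E17.5, against 9.54 and 9.60 at E13.5 (-1.18 ± 0.10, adjusted p = 3.6e-05). Cdkn1b, p27, which is linked to the arrest of male germ cells, had 11.30 and 11.13 at E17.5, against 9.99 and 10.68 at E13.5 (0.88 ± 0.21, adjusted p = 0.024). Without the first E13.5 array its difference was 0.53. It was not called with array weights (adjusted p = 0.052) or on the 4 arrays alone (0.12). The dimmer probe set of Cdkn1b was not called (0.11, adjusted p = 0.78). In that list of 12, 2 rose and 2 fell, and the calls higher were 1 and 0 without the first and the second E17.5 array and 1 without the first E13.5 array.

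A few genes of cell division were lower. Of 23 mitosis genes, 5 fell and none rose, with 21 of 23 differences below 0 and a median of -0.324. Of 23 replication genes, 3 fell and none rose, with 22 of 23 below 0 and a median of -0.311. At an unadjusted p under 0.05, 16 mitosis and 13 replication genes were lower and none was higher. Ttk, a spindle checkpoint kinase, had 9.38 and 9.45 at E17.5, against 10.14 and 10.44 at E13.5 (-0.88 ± 0.16, adjusted p = 0.0058), with an adjusted p of 0.053 without the first E17.5 array. Rrm2, the ribonucleotide reductase subunit of S phase, had 11.10 and 10.86 at E17.5, against 11.69 and 11.72 at E13.5 (-0.72 ± 0.12, adjusted p = 0.0042), at 0.05 without the second E17.5 array. Mki67, which encodes the Ki-67 antigen, differed by -0.28 (adjusted p = 0.19) and Top2a, the topoisomerase of dividing cells, by -0.32 (adjusted p = 0.098). The second probe set of Ttk was not called (0.14, adjusted p = 0.64). Mitosis genes called lower numbered 0 and 3 without the first and the second E17.5 array and 3 without the second E13.5 array, and replication genes 1, 0 and 1. None of the 8 calls was kept in each fit that left out 1 array, and the 4 arrays alone called 1 mitosis and no replication gene.

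Markers of neighbouring tissue were checked against the labels. Over all genes 6.94% were called higher and 4.02% lower, so 1 call in a list this short is near the share over all genes. In the skin list 1 of 12 genes rose (and 1 was called lower without the first E17.5 or the second E13.5 array), Perp, a desmosome protein (1.47 ± 0.23, adjusted p = 0.0022), and the keratins Krt5 (-0.09) and Krt14 (0.02) were not called. The mean over the skin genes was 8.69 and 8.54 at E17.5, against 8.69 and 8.40 at E13.5. Of 15 skeletal muscle genes 6 rose and none fell, 4 being called without the second E17.5 array or the first E13.5 array, and their mean was 7.98 and 7.99 at E17.5, against 7.59 and 7.59 at E13.5. Neb, nebulin of the thin filament, had 7.58 and 7.41 at E17.5, against 5.13 and 5.63 at E13.5 (2.11 ± 0.22, adjusted p = 0.00015), and Myh8, the perinatal myosin, differed by 1.00 ± 0.13. Acta1, the actin that defines adult skeletal muscle, was not called (-0.21, adjusted p = 0.57), nor was Myog (0.07) or Ckm (0.16). No marker of either list was at 0. The part of muscle in the rise of contractile genes was not tested. In cartilage and tendon, 1 of 10 rose and 1 fell. The riser was lost without the second E17.5 array, and the counts lower were 0 without either E17.5 array or the first E13.5 array and 2 without the second E13.5 array.

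Among 10 adrenal and chromaffin genes, 1 rose, beside 6.94% of all genes. This was Cyp21a1, the adrenal 21-hydroxylase, with 10.16 and 10.37 at E17.5, against 8.53 and 8.24 at E13.5 (1.88 ± 0.14, adjusted p = 1.1e-05). The adrenal markers Cyp11b1 (0.21) and Mc2r (-0.30) and the chromaffin marker Th (-0.21) were not called. Without the second E13.5 array 1 gene of this list was called lower. Afp, alpha-fetoprotein, best known from yolk sac and fetal liver, had 10.97 and 10.80 at E17.5, against 6.17 and 7.11 at E13.5 (4.25 ± 0.28, adjusted p = 5.2e-06). In 3 of its 4 other probe sets the difference was between 2.63 and 4.15, and the dimmest gave -0.09. Of 10 further liver genes picked after their values were seen, 1 was called, Ahsg, fetuin A (0.64 ± 0.14). Alb, albumin, had a difference of 0.13 (adjusted p = 0.7) and Ttr, transthyretin, -0.05 (adjusted p = 0.92).

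Endothelial genes were divided, with 2 of 17 higher and 3 lower, beside 6.94% higher and 4.02% lower over all genes. The count higher was 1 without either E17.5 array and without the first E13.5 array. Cdh5, the adhesion molecule of endothelium, had 11.35 and 11.32 at E17.5, against 10.35 and 10.53 at E13.5 (0.89 ± 0.12, adjusted p = 0.0011), and Emcn, endomucin of veins and capillaries, had 8.46 and 8.75 at E17.5, against 9.97 and 9.99 at E13.5 (-1.38 ± 0.14, adjusted p = 0.00011). Pecam1 did not pass (-0.16, adjusted p = 0.6). In interstitial mesenchyme, where 1 was called higher without either E17.5 array, and 1 lower without the second E17.5 array or either E13.5 array, 3 of 14 genes rose and 2 fell, Nr2f1 with the largest fall and Inhba with the largest rise. Of 15 apoptosis genes, Pmaip1, which encodes the killer protein NOXA, was the 1 faller (-2.13 ± 0.30, adjusted p = 0.0011), and none rose. Without either E13.5 array 2 apoptosis genes were called lower. In oxidative phosphorylation, 0 of 30 genes were called in the limma fit, at an unadjusted p under 0.05 2 were higher and 5 lower, and all 30 differences lay between -0.387 and 0.300. With all probe sets of a gene averaged, 2 oxidative phosphorylation genes were called lower, and with quantile normalization 1. None of 4 sex-linked genes was called, and at an unadjusted p under 0.05 the counts were 0 higher and 1 lower.

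**Figure D3:**
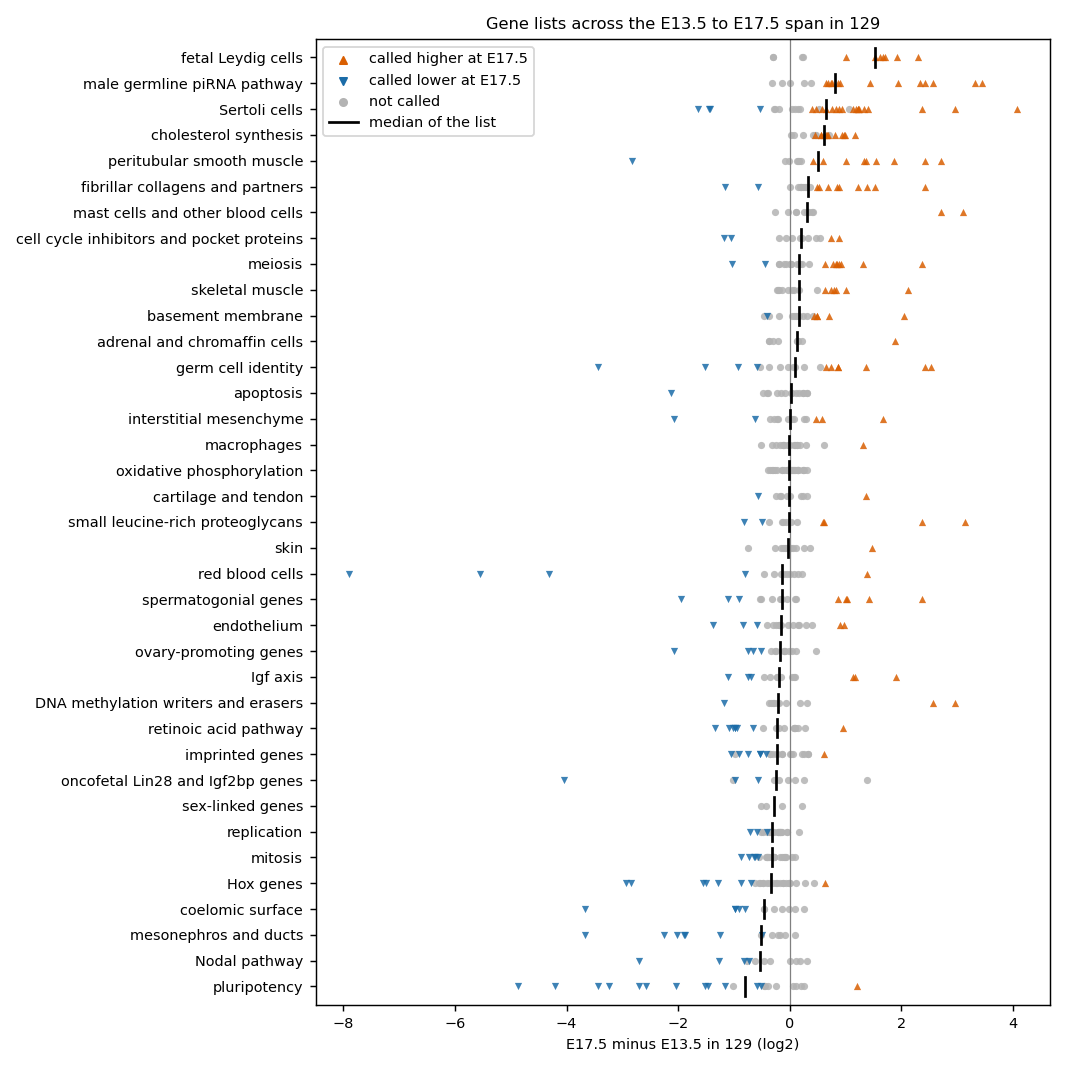
Difference of each measured gene between E17.5 and E13.5 in 129 (log2, horizontal axis) for the 37 lists, ordered by their median (black bar). Orange upward triangles are genes called higher at E17.5, blue downward triangles genes called lower, grey circles genes not called. Fetal Leydig cells have the highest median (1.52) and pluripotency the lowest (-0.803).

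Several of the largest differences lie outside the lists. Cst12, a cystatin-type protease inhibitor gene at chr2:148789365-148793432, had 12.19 and 12.07 at E17.5, against 6.58 and 6.88 at E13.5, the largest rise of all (5.40 ± 0.16, adjusted p = 1.2e-08). Ccdc113, a coiled-coil protein of cilia, had 8.23 and 8.22 at E17.5, against 4.08 and 3.42 at E13.5 (4.48 ± 0.18, adjusted p = 1.3e-07). Ccl17, a chemokine that attracts T cells, had 12.01 and 12.04 at E17.5, against 8.04 and 7.96 at E13.5 (4.03 ± 0.12, adjusted p = 1.2e-08). Gm364, a predicted gene on the X chromosome, had 9.84 and 9.77 at E17.5, against 6.28 and 6.87 at E13.5 (3.23 ± 0.22, adjusted p = 7.5e-06). Gsta2, a glutathione transferase, had 10.85 and 10.50 at E17.5, against 7.14 and 8.15 at E13.5 (3.03 ± 0.30, adjusted p = 0.00011). For Bcan, the proteoglycan brevican, the brighter probe set had 11.08 and 10.94 at E17.5, against 7.52 and 7.63 at E13.5 (3.44 ± 0.15, adjusted p = 2.9e-07), while the other gave 0.48 and was not called (adjusted p = 0.27).

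Of the fallers outside the lists, Tgfbi, an extracellular matrix protein induced by TGF-beta, had 9.79 and 9.70 at E17.5, against 12.98 and 12.78 at E13.5 (-3.13 ± 0.11, adjusted p = 6e-08), with all 4 probe sets between -3.13 and -2.94. Shisa3, a modulator of Wnt and FGF receptors, had 5.45 and 5.46 at E17.5, against 9.01 and 9.32 at E13.5 (-3.71 ± 0.19, adjusted p = 1.1e-06). Mtm1, the phosphoinositide phosphatase myotubularin of the X chromosome, had 8.89 and 8.88 at E17.5, against 12.45 and 12.04 at E13.5 (-3.37 ± 0.16, adjusted p = 5.4e-07). Its second probe set fell by 3.10 and its dimmest gave 0.25 with no call (adjusted p = 0.69). Moxd1, a monooxygenase of the dopamine hydroxylase family, had 7.24 and 6.94 at E17.5, against 10.06 and 10.23 at E13.5 (-3.06 ± 0.17, adjusted p = 1.3e-06).

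The same span in M19, measured on arrays that the 129 span does not use, is set beside it here. Of the 2797 genes called in M19, 1843 were higher (10.2% of those tested) and 954 were lower (5.29%), and with arrays centred on their medians the counts were 1503 and 1295, the median M19 difference over all genes being 0.105 as deposited. Leaving out an M19 array of either stage gave between 940 and 1621 genes. Of the 1975 genes called in 129, 1657 were called in the same direction in M19, which is 83.9% of the 129 calls and 59.2% of the M19 calls, and 1 was called in the opposite direction. Both spans had their spread estimated in 1 fit. Over all 18032 genes, which are not independent of each other, Pearson's r between the 2 spans was 0.888. Of the 538 genes called with a difference of at least 1 in 129, 522 were called the same way in M19.

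The largest differences in 129 were also large in M19. Hbb-y differed by -7.89 in 129, against -8.10 in M19. Cst12 differed by 5.40, against 4.93, Dppa5a by -4.22, against -4.08, and Star by 2.31, against 2.66. Some piRNA genes had a larger value in M19, with Piwil4 at 3.44 in 129, against 5.25 in M19, and Morc1 at 1.93, against 3.60. Some pluripotency genes had a smaller one, with Sox2 at -4.88 in 129, against -3.81 in M19, and Tdgf1 at -2.71, against -0.63. The test of the difference between the spans called none of these 4 genes.

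**Figure D4:**
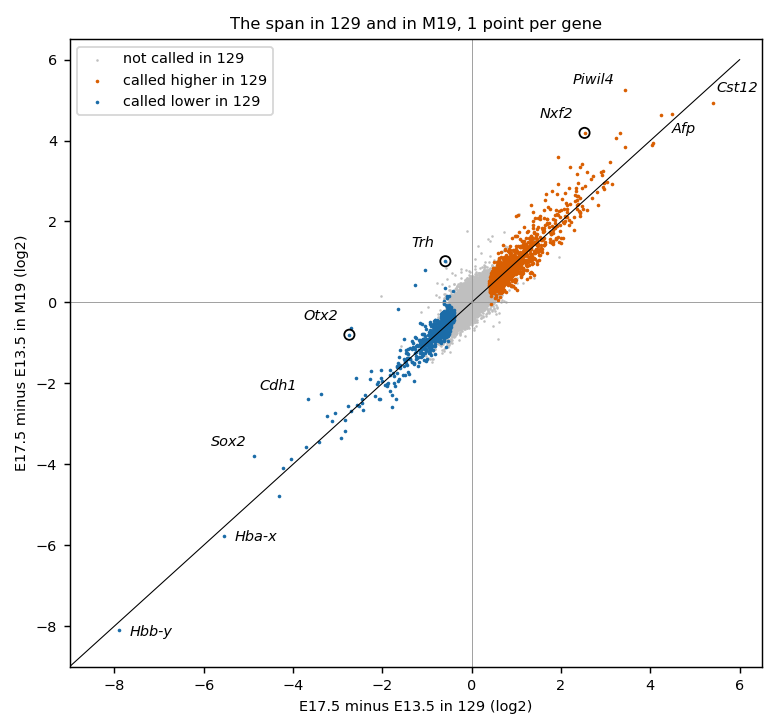
Difference between E17.5 and E13.5 in 129 (horizontal axis) against that in M19 (vertical axis), both in log2, 1 point for each of 18032 genes, with the diagonal of equal differences. Genes called higher in 129 are orange, lower blue, not called grey, and circles mark the 3 genes whose spans differ between strains by test. The points follow the diagonal with r = 0.888, from Hbb-y at the lower left (-7.89 in 129, -8.10 in M19) to Cst12 at the upper right (5.40 and 4.93).

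The test of the difference between spans called 4 of 45037 probe sets (0.00888%), all with a lower value in the 129 span, and 3 of 18032 genes by their representative (0.0166%). At an unadjusted p under 0.05 there were 1045 probe sets, 2.32% of all, 739 lower and 306 higher in 129. Nxf2 rose by 2.53 in 129, against 4.19 in M19 (129 minus M19 -1.66, adjusted p = 0.022). Otx2, a homeobox factor of the anterior embryo, fell by 2.74 on the log2 scale in 129, against a difference of -0.80 in M19 (-1.94, adjusted p = 0.036). Trh, thyrotropin-releasing hormone, differed by -0.59 in 129, against 1.02 in M19 (-1.61, adjusted p = 0.022). Over the 12 fits that left out 1 array, Nxf2 and Trh each missed the threshold in 8, without any of the 6 M19 arrays or either 129 E17.5 array, at adjusted p up to 0.23. Otx2 missed it in 10 of the 12, with the first 129 E13.5 array and the first M19 E17.5 array as the exceptions, at adjusted p up to 0.36. The remaining probe set, the dimmer one for Cer1, had 6.16 and 6.05 at E17.5, against 5.22 and 5.26 at E13.5 in 129. In M19 it had 9.55 and 10.0 at E17.5, against 5.27 and 5.24 at E13.5. Its difference between spans of -3.65 was called in all 12 of those fits (adjusted p up to 0.0043).

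The X chromosome carried 3.42% of all genes with a known chromosome, 3.84% of the 1250 called higher and 4.01% of the 724 called lower. It carried 5.79% of the 380 called higher by at least 1 and 7.59% of the 158 called lower by at least 1, which is 22 and 12 genes. In the 250 bases before the start, the median number of CpG was 13 over the 14368 genes with a window. It was 13 in genes called higher and 15 in genes called lower, of which 13.4% had fewer than 5 CpG, against 23.6% of all genes. In genes called by at least 1 it was 10 in those higher and 12 in those lower, of which 25.0% had fewer than 5 CpG. Among the lists, the median was 17 in the piRNA list, 21 in the cholesterol list and 3 in the red cell list. CCAAT occurred in 88.9% of the 18 mitosis genes with a window, against 35.7% of all. These are descriptions of the windows, with no test.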

How the data were processed

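Testis RNA of 129/Sv and M19 mouse embryos at 3 stages was hybridised to 12 arrays, 2 in each of 6 groups. The values deposited by the authors run from 0 to about 15 with array medians near 8 and were taken as log2 signal; the summary method, the normalization and the base of the log are not given in the sources used here. If the base is another, all differences scale by 1 factor and no call changes. The platform's table gave 45101 probe sets, of which 64 controls were left out. Among the other 45037, 34945 carried 1 gene symbol, 932 several and 9160 none, and probe sets with several or none were tested but not named.

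Values were used as deposited, in limma 3.58.1 (R 4.3.3) with a mean for each of the 6 groups, no block and eBayes, which left 6 residual and 4.82 prior degrees of freedom. Contrasts were E17.5 minus E13.5 in 129, the same in M19, and the first minus the second. P-values were adjusted by the Benjamini-Hochberg method over 45037 probe sets, with a threshold of 0.05. Tested on simulated data with 200 probe sets changed, the 129 contrast recovered 2.78% of changes of 0.5, 57.6% of changes of 1 and 96.8% of changes of 2, with 2 false calls among 102. In that simulation changes of 0.5 were mostly missed. The data held 3721 called probe sets, which makes the cutoff looser than in the simulation, and the smallest gene difference called was 0.378. Recovery at the number of changes in the data was not tested.

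Named genes are the 14 with the largest called difference in each direction, where the replicates of the stages did not overlap and the mean of the higher stage exceeded 8.17, the middle value of the probe set means. To these come members of 37 gene lists, those with the largest called differences and those that define a list. The members and lists were chosen with earlier results of these data known. The liver and neutrophil granule genes were picked after their values were seen. Replicate numbers were checked for pairing by the correlation of the deviations of same-numbered arrays. It lay between -0.373 and 0.539 over the 15 pairs of groups, and was 0.0106 between the 129 E17.5 and E13.5 arrays. The highest were 0.539 between 129 E13.5 and 129 E15.5, 0.538 between 129 E15.5 and M19 E17.5, and 0.505 between 129 E13.5 and M19 E17.5. What the same-numbered arrays of these groups share was not tested. Promoter windows are the 250 bases before the first listed start of a gene in RefSeq (GRCm38.p6), found for 14368 of 18032 genes. Figures were drawn with matplotlib 3.10.9 and tables joined with pandas 2.3.3 (Python 3.11.15). Alternatives were other scalings, filters on dim probe sets, variance models, array weights, fits on 8 or 4 arrays, a block, a mean over the probe sets of a gene, and leaving out each array.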

Additional observations from a re-analysis of the deposited data

Results flagged for a closer look

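The difference of the E13.5 to E17.5 span between strains, as 129 minus M19, drew attention because its own test called 4 probe sets. Each was lower in the 129 span: -3.65 for the dimmer probe set of Cer1, -1.94 for Otx2, -1.66 for Nxf2 and -1.61 for Trh (limma adjusted p = 0.00016, 0.036, 0.022 and 0.022). In Cer1 the brighter probe set was not called in the 129 span (0.30, adjusted p = 0.34). The groups hold 2 arrays each, so no single array could be tested as standing apart from its group.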

How the results depend on the processing

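With array weights, the fit on the 4 arrays of a comparison and a minimum difference of 1, the 129 span called 1745, 1326 and 1001 probe sets in place of 3721, and 986, 716 and 538 genes in place of 1975. The M19 span called 12154, 8833 and 1177 probe sets in place of 5556, and 5765, 4214 and 586 genes in place of 2797. Both settings that take the spread of the compared arrays into account thus lowered the 129 counts and raised the M19 counts, and the 129 E13.5 arrays had a mean weight of 0.353. Leaving out 1 array gave 1857 to 4658 probe sets and 1016 to 2296 genes in 129, and 1696 to 8313 probe sets and 940 to 4081 genes in M19. The lowest 129 counts came without either E17.5 array (1925 and 1857 probe sets). The difference between the spans called 2 probe sets with quantile normalization, 2 with median centring, 1 without probe sets under the median, 1 on the 8 arrays of both stages, and 1 to 6 with an array left out, in place of 4. Of the 4 probe sets, only that of Nxf2 had a mean above the median. Without probe sets under the median it kept its call (limma adjusted p = 0.021), and the others were filtered out. The cause of the other changes was not tested.

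With the replicate number as a block, 3733 probe sets and 1941 genes were called in 129, 5787 and 2847 in M19, and 3 probe sets in the difference, where Otx2 missed the threshold (adjusted p = 0.061). Of 219 genes followed, 128 kept their call in all alternatives run. On the 4 arrays 78 lost it, with array weights 65 and with the block 8. Calls were also lost where an array of a stage was left out. None changed direction, but most alternatives could not change it. In called genes the arrays of the stages did not overlap, so leaving out an array could not reverse the difference. Array weights, variance models, filters on dim probe sets, the block and the fits on 8 or 4 arrays leave the difference itself unchanged. Only scaling and the mean over the probe sets of a gene could otherwise move it. With the 8 arrays less the first 129 E13.5 array, an alternative chosen after seeing the data, 2320 genes were called. Array weights, 8 arrays, 4 arrays and leaving out each array of the comparison were added for the lists on the same footing. Scaling moved the median 129 difference of all probe sets by less than 0.1, to -0.016 with quantile normalization and -0.026 with median centring, beside -0.0091 as deposited.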
